A study of Mus musculus with 16 samples.

Results

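The cytosolic ribosomal protein genes were followed in mouse embryonic stem cells (ESCs) after loss of Dnmt1, alone or together with loss of Dicer. Members were chosen by gene symbol alone (Rpl, Rps or Rplp followed by a number and at most a short suffix), and 81 of 26127 annotated genes matched. They comprised 31 genes of the small 40S subunit, 47 of the large 60S subunit and 3 of the P-stalk. Of the 81, 75 carried a plain name and 6 carried the name of a paralog (Rpl3l, Rpl7l1, Rpl10l, Rpl22l1, Rpl39l and Rps27l). The study asked how ESCs respond to global loss of DNA methylation when the small RNA pathway is intact or absent. RNA was sequenced from 16 libraries, all labelled as ESC with E14 as background strain: 8 labelled Wildtype (WT), 4 labelled Dnmt1-/- (Dnmt1 KO) and 4 labelled Dicer/Dnmt1 -/- (Dicer/Dnmt1 KO). Library names gave a number (1 to 4 in WT, 1 and 2 in each KO group) and a letter (A or B) whose meaning the labels do not state. In the study's methods the Dnmt1 alleles were floxed and were deleted with tamoxifen-activated Cre. Dicer was targeted with CRISPR in the same parental line followed by growth from single cells, so each such line is 1 clone. The study made a constitutive Dicer KO and also a conditional line with both Dicer and Dnmt1 floxed. Library names do not state which of these was sequenced, or on which day after deletion. The methods describe the parental floxed line as C57BL/6, whereas the labels give E14, and this was not resolved. No library with loss of Dicer alone was analysed here.

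Ribosomal proteins are made in near-equal numbers and assemble with ribosomal RNA in the nucleolus into the subunits that translate the mRNAs of the cytosol. Their genes are among the most highly expressed in dividing cells, and their mRNAs begin with a run of pyrimidines (the TOP motif) through which the mTOR pathway sets their translation. A few have paralogs with restricted expression: Rpl10l and Rpl39l are known from male germ cells, and Rpl3l from heart and skeletal muscle.

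The promoters of the 2 paralogs that were tested and rose in both KO groups are shown with those of their parent genes, which did not rise. Each sequence runs from 100 bases before to 50 bases after the RefSeq start on the gene's strand (GRCm38.p6), with every CG dinucleotide, the site that Dnmt1 maintains in methylated form, in capitals. They lie at chr16:10170128-10170277 (plus strand) for Rpl39l, chr12:66284352-66284501 (minus strand) for Rpl10l, chrX:37085173-37085322 (minus strand) for Rpl39 and chrX:74270716-74270865 (plus strand) for Rpl10.
Rpl39l: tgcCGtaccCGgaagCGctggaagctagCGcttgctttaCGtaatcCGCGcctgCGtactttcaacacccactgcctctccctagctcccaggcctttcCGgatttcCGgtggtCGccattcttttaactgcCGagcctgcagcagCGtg
Rpl10l: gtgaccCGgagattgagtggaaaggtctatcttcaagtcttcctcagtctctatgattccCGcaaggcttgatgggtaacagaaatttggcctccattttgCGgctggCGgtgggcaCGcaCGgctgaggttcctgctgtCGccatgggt
Rpl39: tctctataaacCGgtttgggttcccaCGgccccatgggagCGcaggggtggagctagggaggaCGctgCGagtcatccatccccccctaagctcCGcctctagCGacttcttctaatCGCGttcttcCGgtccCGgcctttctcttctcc
Rpl10: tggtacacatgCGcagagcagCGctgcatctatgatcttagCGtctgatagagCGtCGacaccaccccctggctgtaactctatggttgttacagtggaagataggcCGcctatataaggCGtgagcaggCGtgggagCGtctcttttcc
The 150 bases held 13 CG dinucleotides for Rpl39l, 7 for Rpl10l, 11 for Rpl39 and 9 for Rpl10. Over the full window of 300 bases (250 before and 50 after the start), Rpl39l, Rpl39 and Rpl10 each held 17 and Rpl10l held 13. The 64 promoters of the 54 plainly named genes with an entry held a median of 21 (range 8 to 39), against a median of 7 over all 32851 promoters of the table. Rpl3l, the muscle paralog, lay far below, with 2 and 3 in its 2 entries. It had too few reads for the main test, and its values are given below. DNA methylation itself was not analysed here.

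Promoter letters shared by the family were counted over the 72 entries that 60 of the 81 genes had, on both strands unless stated. The pyrimidine run CTTTCC, a common core of the TOP start, was on the sense strand in 37.5% of member promoters and in 14.1% of all promoters (48.6% and 26.6% on either strand). CCGGAAG, the core bound by ETS factors such as Gabpa, was in 33.3% of member promoters and 8.9% of all. AAGATGG, the core bound by Yy1, was in 16.7% and 6.3%. The E-box CACGTG bound by Myc was in 11.1% and 7.2%. The 4 motifs do not contain each other, and a match describes the letters of the window only. CCGGAAG and CACGTG each hold a CG, of which plainly named members had a median of 21 against 7 over all promoters. The shares were not adjusted for this.

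The deposited values are log2 RPM, a gene's reads scaled to the total reads of its library. At low read counts every value came out within 0.05 of a whole number of reads. Higher counts, which include most ribosomal protein values, were not checked in this way. Library totals, derived from the smallest value above that of a gene with no read, were 31.5 to 52.5 M reads, of which 44.2% to 48.7% fell in genes. The targeted genes were first checked against the labels. Dnmt1 lay between 4.17 and 4.64 log2 RPM in the 8 KO libraries and between 7.40 and 7.66 in WT numbers 1 to 3, but the 2 libraries labelled WT number 4 lay between, at 5.69 and 5.55. Dicer1 was at 3.68 to 4.06 in Dicer/Dnmt1 KO and 5.285 to 5.68 in Dnmt1 KO. In WT it was at 5.15 to 5.68 in numbers 1 to 3 and at 4.78 and 4.56 in number 4. The main counts against WT, and the genes and lists below where stated, are therefore also given without the libraries labelled WT number 4. All 10 ESC markers (Pou5f1, Nanog, Sox2 and others) were above 1 RPM in all 16 libraries (lowest value 17.9 RPM). Their levels still differed between groups. With Dnmt1 lost, limma called 3 of these 10 down and 0 up relative to WT (median log2 fold change -0.27). With both genes lost, 2 were down and 1 up relative to WT (median -0.14). Between the KO groups, 2 were down and 3 up in the double KO (median 0.11). Of all genes, 17.5%, 30.1% and 19.4% were lower in these comparisons. The study grew its ESCs with or without a layer of feeder fibroblasts, and 10 fibroblast markers summed to 41.2 to 72.4 RPM in WT. The sum was 94.1 to 110.6 RPM for Dnmt1 KO libraries and 86.9 to 153.0 RPM for Dicer/Dnmt1 KO libraries. Of these markers 8 were above 1 RPM in all 16 libraries, while Lum and Dcn stayed below 1 RPM in all 16. Against WT, 4 of 8 tested markers were called higher after loss of Dnmt1 and 6 of 8 after loss of both, and between the KO groups 1 of 8 (23.5%, 31.9% and 16.9% of all genes were higher in these comparisons). Their part in the results that follow was not tested.

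Reads in the 81 genes made up a smaller share of gene reads in Dicer/Dnmt1 KO than in any other library. The share was 5.36%, 5.30%, 5.99% and 5.89% in Dicer/Dnmt1 KO 1A, 1B, 2A and 2B. It was 8.06%, 7.20%, 6.20% and 6.62% in the same-named Dnmt1 KO libraries. In WT it ran from 6.57% (1A) through a median of 8.17% to 10.97% (4B). The Dicer/Dnmt1 KO libraries thus lay below all 12 others, whereas Dnmt1 KO overlapped WT. Group means were 8.44% ± 1.55 (SD, n = 8) in WT, 7.02% ± 0.81 (SD, n = 4) for Dnmt1 KO and 5.63% ± 0.36 (SD, n = 4) for Dicer/Dnmt1 KO, and 7.69% ± 0.78 (SD, n = 6) in WT without number 4. Because values are shares of a library from bulk cells, less ribosomal protein mRNA per cell cannot be told apart from a change in the mix of cells or in all other RNA.

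**Figure D1:**
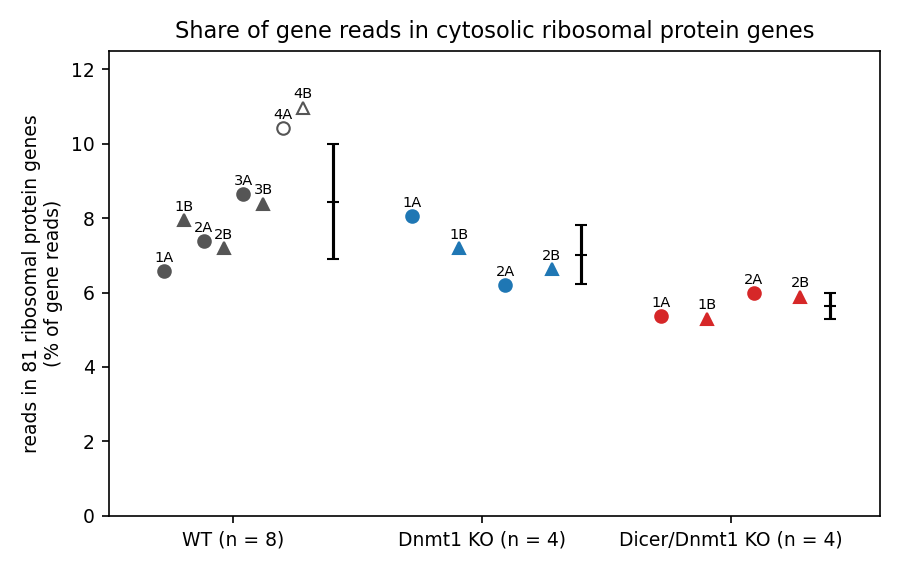
Share of gene reads (%) that fell in the 81 ribosomal protein genes, by group, with a circle for letter A and a triangle for letter B and open symbols for WT number 4. Bars give mean ± SD, and the 4 Dicer/Dnmt1 KO libraries sit between 5.30% and 5.99%, below all 12 others.

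The plainly named genes moved largely as a block from library to library. Over the 75 genes, the first principal component of their deviations from each gene's own mean held 88.9% of the variance and the second 7.1%. In both Dicer/Dnmt1 KO number 2 libraries all 75 genes were below their own 16-library mean, and in 1A and 1B 74 and 72 were. In both WT number 4 libraries no gene was below its mean. WT 1A stood apart from the other WT libraries, with 60 genes below.

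**Figure D2:**
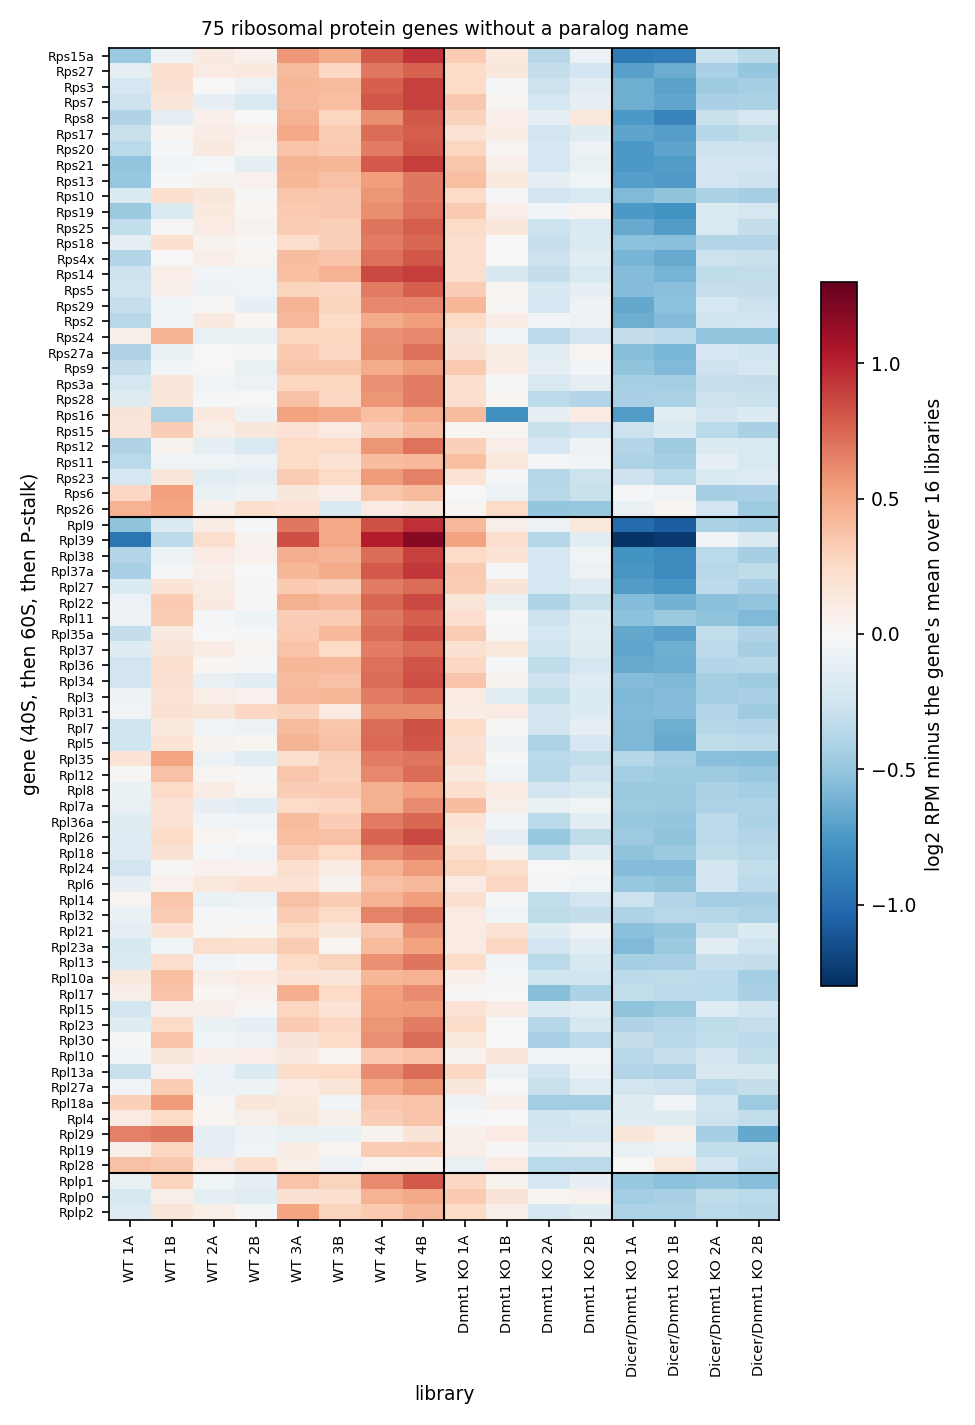
Deviation of log2 RPM from each gene's mean over 16 libraries for the 75 plainly named genes (rows, by subunit) in each library (columns, by group). Blue is below and red above the mean, and the 4 Dicer/Dnmt1 KO columns are blue for 72 to 75 of the 75 genes.

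Between Dicer/Dnmt1 KO and WT, 77 of the 80 genes that passed the filter on low values were lower and 2 were higher at an adjusted p under 0.05 (limma), against 30.1% lower and 31.9% higher of all 12892 genes tested. The 81st gene, Rpl3l, was below the filter. The median log2 fold change was -0.66 over the 80 genes and 0.02 over all genes. All 30 plainly named 40S genes fell, with a median of -0.67 and a range of -0.92 to -0.38. Of the 42 plainly named 60S genes 41 fell, with a median of -0.66 and a range of -1.02 to -0.26. The 3 P-stalk genes fell. The only plainly named gene not called was Rpl29 (-0.36, SE 0.18, adjusted p = 0.0809 by limma), which is named here after its value was seen. Groups did not overlap for 47 of the 80, against 18.9% of all genes that were lower without overlap, and were higher without overlap for 2, against 22.6%.

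Rps3, a 40S protein at the mRNA entry channel, was at 9.26, 9.21, 9.43 and 9.46 log2 RPM in Dicer/Dnmt1 KO 1A, 1B, 2A and 2B, and at 9.68 (lowest), 10.20 (median) and 10.79 (highest) in WT. Every Dicer/Dnmt1 KO library was below every WT library, and the limma log2 fold change was -0.86 (SE 0.18, adjusted p = 0.000452). Rps27, a zinc-finger 40S protein, was at 7.47, 7.53, 7.76 and 7.67 log2 RPM in Dicer/Dnmt1 KO against 8.06 to 8.95 in WT, again without overlap. Its log2 fold change was -0.88 (SE 0.15, adjusted p = 6.56e-05). Rpl22, an RNA-binding 60S protein that is not essential for the ribosome, was at 7.93, 7.88, 7.96 and 7.98 log2 RPM in Dicer/Dnmt1 KO and 8.41 to 9.35 in WT. It had the largest fall among the family's genes whose groups did not overlap (log2 fold change -0.92, SE 0.15, adjusted p = 5.50e-05). Without WT number 4 the log2 fold changes were -0.68 for Rps3, -0.74 for Rps27 and -0.77 for Rpl22, all called.

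The P-stalk, which recruits the translation GTPases, followed the same course. Rplp0, the base of the stalk, was at 9.36, 9.38, 9.47 and 9.46 log2 RPM in Dicer/Dnmt1 KO and 9.59 to 10.30 in WT (log2 fold change -0.50, SE 0.12, adjusted p = 0.0019). The Rplp0 call was lost with letters A and B averaged (adjusted p = 0.0538) and held in 28 of 31 alternative settings, over which its change ran from -0.725 to -0.019 and its adjusted p reached 0.743. Rplp1 changed by -0.78 (SE 0.15, adjusted p = 0.000258) and Rplp2 by -0.58 (SE 0.11, adjusted p = 0.000319). Groups did not overlap for any of the 3. Among the genes with roles beyond translation, Rpl5 (-0.77, SE 0.17) and Rpl11 (-0.81, SE 0.15), which bind Mdm2 when ribosome assembly fails, fell without overlap. Rps6, the target of S6 kinase (-0.44, SE 0.12), Rps19, which is mutated in Diamond-Blackfan anaemia (-0.67, SE 0.19), and Rps27a, which is made as a fusion to ubiquitin (-0.58, SE 0.16), fell with groups that overlapped. With letters averaged these 3 calls were lost (adjusted p = 0.0778, 0.0626 and 0.0668). All 8 genes named here were called without WT number 4, with log2 fold changes of -0.39 (Rplp0), -0.635 (Rplp1), -0.52 (Rplp2), -0.61 (Rpl5), -0.67 (Rpl11), -0.38 (Rps6), -0.51 (Rps19) and -0.42 (Rps27a).

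The fall against WT kept its direction whichever WT libraries were used. Without WT number 4, 75 of 80 were lower with a median of -0.53 (3902 of all 12892 genes). Against WT numbers 1 and 2 only it was 69 with a median of -0.43 (3355 of all genes). Against numbers 3 and 4 only it was 75 with a median of -0.89 (4252 of all genes). With letters A and B averaged, 56 of 80 were lower (2352 of all genes). At a minimum of 2-fold, 2 of the 80 genes were lower, Rpl22l1 and Rpl9, against 429 of all 12892 genes. Rpl39 lay just inside that limit (-0.999).

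**Figure D3:**
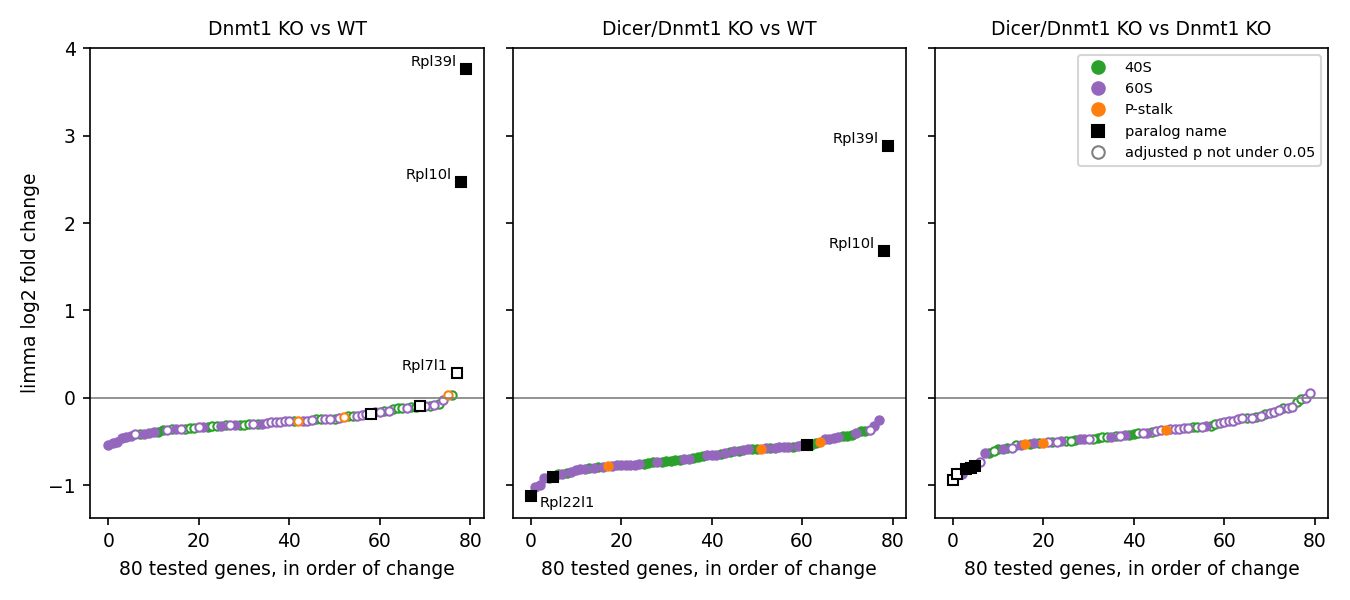
Limma log2 fold change of the 80 tested genes in order of size, for each of 3 comparisons, coloured by subunit with paralog names as black squares and open symbols where the adjusted p was not under 0.05. Nearly all points lie below 0, and Rpl39l and Rpl10l stand far above in both comparisons with WT.

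Between Dnmt1 KO and WT fewer genes of the family were called, and the count depended on the control libraries. At an adjusted p under 0.05 (limma), 17 of 80 were lower, close to the 17.5% of all genes tested, and 2 were higher against 23.5% of all genes. The median log2 fold change was -0.27, against 0.04 over all genes. Of the plainly named genes, 3 of 30 in the 40S subunit, 14 of 42 in the 60S subunit and 0 of 3 in the P-stalk fell. Groups were lower without overlap for 4 of 80, against 8.43% of all genes. They were higher without overlap for 3 of the 81 (Rpl39l, Rpl10l and the untested Rpl3l), against 14.8%.

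Among called genes the largest falls without overlap were those of Rpl17, Rpl10a and Rps15. Rpl17, which lines the exit tunnel, was at 8.19, 8.18, 7.63 and 7.77 log2 RPM in Dnmt1 KO 1A, 1B, 2A and 2B, and 8.21 to 8.80 in WT (log2 fold change -0.54, SE 0.12, adjusted p = 0.00216 by limma). Rpl10a, of the stalk past which spent tRNA leaves, was at 8.40, 8.32, 8.08 and 8.08 against 8.42 to 8.79 log2 RPM in WT (log2 fold change -0.36, SE 0.09, adjusted p = 0.00357). Rps15 changed by -0.34 (SE 0.08, adjusted p = 0.00383). In each case Dnmt1 KO 1A lay just under the lowest WT library. The 3 were called without WT number 4, at -0.45, -0.295 and -0.29, and with letters averaged none of the 3 was (adjusted p = 0.0646, 0.109 and 0.122). Rplp0 (0.03, SE 0.12, adjusted p = 0.859) and Rps19 (-0.08, SE 0.19, adjusted p = 0.765) did not pass the test.

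With letters A and B averaged, 0 of 80 were lower in Dnmt1 KO by limma (10 of 80 had an unadjusted p under 0.05). In that setting 869 of all 12892 genes were lower. Against WT numbers 1 and 2 only, 7 were lower and 4 higher with a median of -0.02 (2385 lower and 3247 higher of all 12892 genes). Against numbers 3 and 4 only, 69 were lower with a median of -0.52 (2811 of all genes). Without number 4, 13 were lower and 3 higher with a median of -0.13 (2627 and 3167 of all genes). Leaving out WT 1A gave 35 lower (2410 of all genes), Dnmt1 KO 1A 31 (2209), Dnmt1 KO 2A 4 (1612) and Dnmt1 KO 2B 7 (1678).

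Dicer/Dnmt1 KO was also compared with Dnmt1 KO, which shares the loss of Dnmt1 and does not use WT levels. Of 80 genes 26 were lower and 0 higher at an adjusted p under 0.05 (limma), against 19.4% lower and 16.9% higher of all genes (36.3% in either direction), and 49 had an unadjusted p under 0.05. The median log2 fold change was -0.42, against -0.01 over all genes. Of the plainly named genes 8 of 30 in the 40S subunit, 12 of 42 in the 60S subunit and 3 of 3 in the P-stalk fell. Groups were lower without overlap for 50 of 80, against 22.3% of all genes.

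Among called genes the largest falls without overlap were those of Rpl9, Rpl7l1 and Rps27l, of which the last 2 are paralogs described below. Rpl9, a 60S protein, was at 6.02, 5.94, 6.61 and 6.58 log2 RPM in Dicer/Dnmt1 KO and 7.44, 7.09, 6.95 and 7.15 in Dnmt1 KO. Its log2 fold change was -0.87 (SE 0.27, adjusted p = 0.0169 by limma). The P-stalk genes Rplp0 (-0.54, SE 0.14, adjusted p = 0.00743), Rplp1 (-0.52, SE 0.17, adjusted p = 0.0277) and Rplp2 (-0.37, SE 0.13, adjusted p = 0.0385) fell without overlap. With letters averaged the calls of Rpl9 (adjusted p = 0.149), Rplp0 (0.139), Rplp1 (0.202) and Rplp2 (0.24) were lost. Rps6 differed by -0.05 (SE 0.14, adjusted p = 0.818).

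The spread for this comparison was estimated with the 8 WT libraries included. From the 8 KO libraries alone, 62 of 80 were lower (3154 of all 12892 genes). With letters A and B averaged 1 was (544 of all genes), and with their correlation estimated 5 were (1094 of all genes). Leaving out Dnmt1 KO 1A gave 6, Dnmt1 KO 1B 9, Dicer/Dnmt1 KO 1A 9, Dicer/Dnmt1 KO 1B 8, WT 1A 41 and WT 4B 44. In these fits 1879 to 2745 of all genes were lower. The 2 comparisons with WT share their control libraries, and the third shares a group with each, so their values are given side by side only.

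Rpl39l and Rpl10l departed from this pattern. Rpl39l had the largest change of the family in both comparisons with WT. It was at 0.34 (WT 1A), a median of 1.66 and 3.01 log2 RPM (WT 4B) in WT, at 5.88, 5.56, 5.26 and 5.38 for Dnmt1 KO and at 4.48, 4.31, 4.90 and 4.88 in Dicer/Dnmt1 KO. Every KO library was above every WT library. The mean was 13.6-fold higher than WT after loss of Dnmt1 (log2 fold change 3.76, SE 0.36, adjusted p = 2.85e-07 by limma) and 7.39-fold higher in Dicer/Dnmt1 KO (2.88, SE 0.36, adjusted p = 2.70e-06). Between the KO groups it was lower in Dicer/Dnmt1 KO without overlap (-0.88, SE 0.41), but this did not pass the test (adjusted p = 0.105).

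Rpl10l, the intronless paralog of X-linked Rpl10, went the same way. It was at 0.48 (lowest), 1.11 (median) and 2.12 log2 RPM (highest) in WT, 3.64, 3.72, 3.73 and 3.49 for Dnmt1 KO and 2.74, 2.45, 3.31 and 2.96 for Dicer/Dnmt1 KO. The 3 groups did not overlap. It was 5.52-fold higher than WT in Dnmt1 KO (2.46, SE 0.26, adjusted p = 9.09e-07 by limma) and 3.21-fold higher in Dicer/Dnmt1 KO (1.68, SE 0.26, adjusted p = 2.67e-05), and lower in Dicer/Dnmt1 KO than in Dnmt1 KO (-0.78, SE 0.30, adjusted p = 0.0481). That last call was lost with letters A and B averaged (adjusted p = 0.235).

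Both rises against WT were called in all 31 alternative settings run for these genes. For both paralogs the libraries labelled WT number 4 were the highest of WT, and they also had the lower Dnmt1 values given above. Whether these are related was not tested. Without them the rises were 4.16 and 3.28 for Rpl39l and 2.75 and 1.97 for Rpl10l on the log2 scale, the first value of each pair for Dnmt1 KO and the second for Dicer/Dnmt1 KO.

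Rpl3l was detected by 1 to 13 reads in WT libraries, 14 to 29 for Dnmt1 KO and 5 to 25 for the double KO. It stood at -0.18, -0.99, -0.89 and -1.24 log2 RPM in Dnmt1 KO, above all WT libraries (-5.55 to -1.83), while Dicer/Dnmt1 KO overlapped WT through library 1B (-2.67). Without the filter limma called it higher than WT in both KO groups (2.33, SE 0.62, adjusted p = 0.00987 with Dnmt1 lost, and 1.88, SE 0.62, adjusted p = 0.0239 with both lost), at depths where a few reads set each value.

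The parent genes did not rise. Rpl39, a short 60S protein of the exit tunnel, was at 8.31, 8.01, 7.42 and 7.64 log2 RPM in Dnmt1 KO, inside the WT range of 6.84 to 8.97 (-0.26, SE 0.34, adjusted p = 0.57 by limma). It fell in Dicer/Dnmt1 KO (-0.999, SE 0.34, adjusted p = 0.0171), where libraries 1A and 1B were at 6.52 and 6.55 and 2A and 2B at 7.75 and 7.61, and this call was lost with letters averaged (adjusted p = 0.103). Rpl10, which joins the 60S subunit last, differed by -0.12 (SE 0.08, adjusted p = 0.248) in Dnmt1 KO and fell by 0.45 on the log2 scale (SE 0.08, adjusted p = 9.90e-05) in Dicer/Dnmt1 KO. Rpl3, at the peptidyl transferase centre, fell in both, by 0.45 (SE 0.14, adjusted p = 0.0131) and 0.82 (SE 0.14, adjusted p = 6.20e-05), the first lost with letters averaged (adjusted p = 0.15). The falls of Rpl39 (-0.74), Rpl10 (-0.375) and Rpl3 (-0.69) in Dicer/Dnmt1 KO and of Rpl3 in Dnmt1 KO (-0.32) were also called without WT number 4.

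Per kilobase of transcript, the germ cell paralogs remained the minor form. Rpl39l made up 1.12% ± 0.23 (SD, n = 8) of Rpl39l plus Rpl39 RPM per kb in WT, 15.3% ± 1.24 (SD, n = 4) for Dnmt1 KO and 14.3% ± 3.33 (SD, n = 4) for Dicer/Dnmt1 KO. Rpl10l made up 0.842% ± 0.283, 4.62% ± 0.361 and 3.48% ± 0.756 of its pair in the same groups. The lowest KO library was above the highest WT library for both shares. Coding sequences were 85.3% identical between Rpl39l and Rpl39 over 156 bases and 84.8% between Rpl10l and Rpl10 over 645 bases. Only reads with a mapping quality of at least 20 were kept by the authors, and Rpl39 had 8 and Rpl10 9 further copies of at least 95% identity in the genome, so parent levels and these shares are uncertain to the extent that parent reads were lost.

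**Figure D4:**
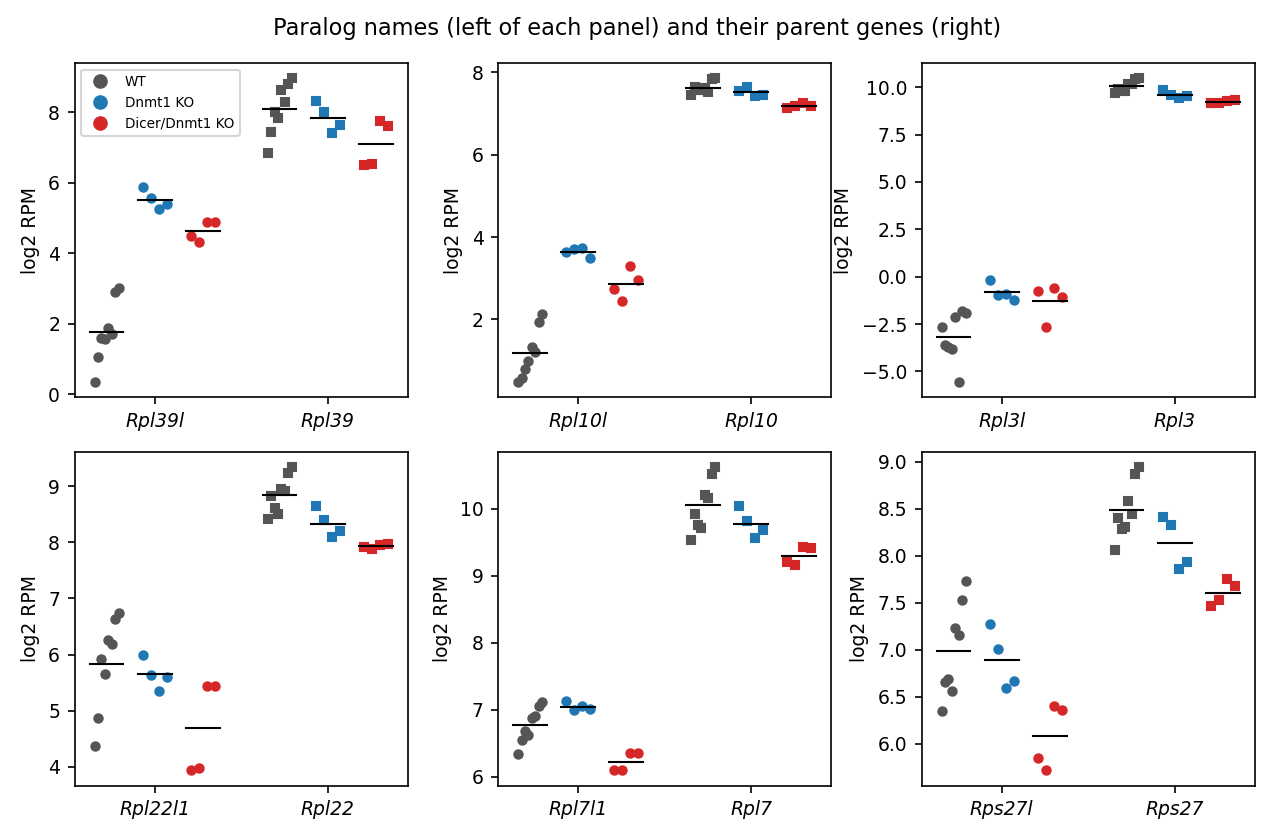
Log2 RPM of each library for the 6 paralog names (circles, left) and their parents (squares, right), with WT, Dnmt1 KO and Dicer/Dnmt1 KO from left to right and a line at each mean. Rpl39l and Rpl10l are above WT in all 8 KO libraries while Rpl39 and Rpl10 are not.

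The other 3 paralogs did not share the rise in both KO groups. Rpl7l1, a nucleolar relative of Rpl7 with 56.0% coding identity, was at 7.13, 6.99, 7.06 and 7.01 log2 RPM for Dnmt1 KO, 6.09, 6.10, 6.35 and 6.36 for Dicer/Dnmt1 KO and 6.35 to 7.11 in WT. It fell in Dicer/Dnmt1 KO against WT (-0.54, SE 0.12, adjusted p = 0.000793 by limma), and by more relative to Dnmt1 KO (-0.82, SE 0.14, adjusted p = 0.000206). For Dnmt1 KO relative to WT its value was 0.28 (SE 0.12, adjusted p = 0.0708), and it was called higher there without WT number 4 (0.38, adjusted p = 0.00394). Its parent Rpl7 fell in Dicer/Dnmt1 KO against WT without overlap (-0.76, SE 0.17, adjusted p = 0.00108). Rps27l, a p53-responsive paralog of Rps27, was at 5.85, 5.71, 6.41 and 6.36 log2 RPM in Dicer/Dnmt1 KO and 7.28, 7.01, 6.59 and 6.67 in Dnmt1 KO, with WT from 6.34 to 7.73. It fell relative to WT (-0.90, SE 0.23, adjusted p = 0.00252) and to Dnmt1 KO (-0.80, SE 0.27, adjusted p = 0.0248), the latter lost with letters averaged (adjusted p = 0.177).

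Rpl22l1, the paralog of Rpl22, had the lowest fold change of the family in Dicer/Dnmt1 KO against WT (-1.13, SE 0.39, adjusted p = 0.0189 by limma). Its 4 values there were 3.93, 3.98, 5.44 and 5.44 log2 RPM, and WT ran from 4.38 (1A) to 6.73 (4B), so the groups overlapped and number 1 was far below number 2. With letters averaged the call was lost (adjusted p = 0.111).

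Dicer/Dnmt1 KO numbers 1 and 2 also differed across the plainly named genes. The SD over the 75 deviations was 0.23 and 0.24 in 1A and 1B and 0.10 in both 2A and 2B, and Rpl39, Rpl9 and Rps19 were lower in number 1 while Rps6, Rpl28 and Rpl29 were higher there, all 6 named as examples after their values were seen. The summed fibroblast markers were 143.0 and 153.0 RPM in number 1 and 96.4 and 86.9 RPM in number 2, and their part in the difference was not tested. WT number 1 differed from WT number 2 in the same direction for all 6 genes. Rpl39, for example, was at 6.84 and 7.45 log2 RPM in WT 1A and 1B and 8.02 and 7.835 in 2A and 2B. In Dnmt1 KO, Rps6, Rpl28 and Rpl29 were also higher in number 1, but Rpl39 and Rps19 were higher there too and Rpl9 overlapped. What the numbers stand for was not tested.

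Levels per length spanned a wide range. Length was the median over a gene's annotated coding transcripts, and levels depend on it. For Rps20 it was 3706 bases for a coding sequence of 360, which gave 142 RPM per kb at 525 RPM. Over all 16 libraries the 75 plainly named genes had a median of 612 RPM per kb (quartiles 397 and 795). The highest were Rplp1 at 1844, Rps24 at 1723 and Rps12 at 1719 RPM per kb. Rpl21, with 56 near-identical copies elsewhere in the genome, was lowest at 31.6, and below it came only the paralogs Rpl39l at 29.5, Rpl10l at 6.09 and, untested, Rpl3l at 0.281. The median was 731 RPM per kb for 24 genes with 0 to 3 copies, 648 for 28 with 4 to 7, 445 for 16 with 8 to 14 and 358 for 7 with 20 or more. Over the 75 genes the rank correlation of copies with level was -0.32, a description across genes that share libraries and the mapping filter. The change in Dicer/Dnmt1 KO against WT did not follow the copies in the same way (rank correlation 0.09), with medians of -0.64, -0.73, -0.59 and -0.56 in the 4 classes.

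Among ribosomal genes that the naming rule leaves out, Rpl36al, a 60S protein gene, changed by -0.72 (SE 0.17, adjusted p = 0.00127 by limma) in Dicer/Dnmt1 KO against WT, and Fau, which encodes a 40S protein as a fusion, by -0.68 (SE 0.11, adjusted p = 3.55e-05).

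Ribosome biogenesis and nucleolar genes were mostly lower in Dicer/Dnmt1 KO. Relative to WT 2 of 33 were higher and 25 lower (median -0.34; 30.1% of all genes were lower), led by the snoRNP protein Nop10 (-1.03, SE 0.19) and by Nip7 (-1.01, SE 0.17). Without WT number 4 it was 0 and 25, and with letters averaged 0 and 15. Relative to Dnmt1 KO, 30 of 33 were lower (median -0.51; 19.4% of all genes), 25 with the correlation of letters estimated, 11 with letters averaged and 30 with the length trend described below removed. In Dnmt1 KO relative to WT, 11 of 33 were higher and 0 lower (median 0.13; 23.5% of all genes were higher), among them Ncl (0.58, SE 0.12) and Utp20 (0.58, SE 0.11). That count was 5 with letters averaged or their correlation estimated, 14 without WT number 4, and 8 higher and 3 lower with the length trend removed. It was 20 higher and 0 lower against WT numbers 1 and 2 only, and 9 and 7 against numbers 3 and 4 only.

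Translation factors and other genes with TOP mRNAs fell in Dicer/Dnmt1 KO against WT in 11 of 17 cases (median -0.42). The noncoding hosts of snoRNAs fell in 6 of 7 (median -0.83). In each list 0 were higher, and 30.1% of all genes were lower. Without WT number 4 the counts were 12 and 6, and with letters averaged 6 and 6. Snhg4 (-1.55, SE 0.14) and Gas5 (-0.98, SE 0.13), itself a TOP transcript, led the hosts. Relative to Dnmt1 KO, 8 of 17 TOP genes and 6 of 7 hosts were lower (19.4% of all genes). The counts were 4 and 4 with the correlation of letters estimated and 1 and 2 with letters averaged. For Dnmt1 KO relative to WT the 17 TOP genes had 1 higher and 3 lower and the hosts 1 lower.

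Mitochondrial ribosomal proteins, which serve a separate ribosome, had 56 of 76 lower in Dicer/Dnmt1 KO against WT (median -0.43; 30.1% of all genes), 53 without WT number 4 and 32 with letters averaged. Relative to Dnmt1 KO 45 of 76 were lower (median -0.41; 19.4% of all genes), 27 with the correlation of letters estimated and 9 with letters averaged. For Dnmt1 KO relative to WT 6 were higher and 9 lower (median -0.01), against 23.5% and 17.5% of all genes. The counts became 16 and 4 without WT number 4 and 25 and 1 against WT numbers 1 and 2 only. They went the other way, to 3 and 27, against numbers 3 and 4 only (median -0.193), and were 3 and 19 with the length trend removed. The calls against all WT libraries were lost with letters averaged or their correlation estimated.

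Of 38 tested proteasome genes, another large complex, 25 were lower and 1 higher in Dicer/Dnmt1 KO against WT (median -0.38; 30.1% and 31.9% of all genes). The lower count was 18 without WT number 4, 14 with the correlation of letters estimated, 11 against WT numbers 1 and 2 only and 8 with letters averaged. Relative to Dnmt1 KO 25 were lower (median -0.45; 19.4% of all genes), but 8 with the correlation estimated and 1 with letters averaged. For Dnmt1 KO relative to WT 9 were higher and 1 lower (median 0.12; 23.5% of all genes were higher). The higher count was 17 without WT number 4, 23 against WT numbers 1 and 2 only, 3 with the correlation estimated and 1 with letters averaged. Against WT numbers 3 and 4 only 5 were higher and 8 lower, and the median changed sign (-0.167).

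Among 20 regulators of ribosomal protein synthesis, Myc, which drives transcription of ribosomal genes, had the largest change in Dnmt1 KO against WT and between the KO groups. Its level was 1.52 ± 0.31 (SD, n = 8) log2 RPM in WT, 3.44 ± 0.29 (SD, n = 4) for Dnmt1 KO and 1.72 ± 0.51 (SD, n = 4) for Dicer/Dnmt1 KO. It rose in Dnmt1 KO against WT (1.91, SE 0.20, adjusted p = 1.10e-06 by limma) and was lower in Dicer/Dnmt1 KO than in Dnmt1 KO (-1.71, SE 0.24, adjusted p = 3.27e-05), while its value for Dicer/Dnmt1 KO against WT was 0.20 (SE 0.20, adjusted p = 0.397). Mycn, the more abundant form here, fell in both KO groups against WT (-0.62, SE 0.08 and -0.46, SE 0.08). The counts of the list were near or below those of all genes. Dnmt1 KO had 4 of 20 higher and 1 lower than WT, against 23.5% and 17.5% of all genes (4 and 5 with the length trend removed, 3 and 1 without WT number 4). Dicer/Dnmt1 KO had 5 higher and 5 lower than WT, against 31.9% and 30.1% (2 and 10 with the trend removed, 4 and 6 without number 4). Between the KO groups 4 were lower in Dicer/Dnmt1 KO, against 19.4%, and 1 with the correlation of letters estimated.

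A trend of level with transcript length differed between libraries and moved with the ribosomal protein genes, whose mRNAs are short. The rank correlation of each library's gene deviations with transcript length, over 12879 genes, was 0.31 to 0.37 in Dicer/Dnmt1 KO, -0.30, -0.20, 0.15 and 0.11 in Dnmt1 KO and -0.51 (4B) to 0.21 (1A) in WT. Over the 16 libraries the mean deviation of the 75 genes had a rank correlation of -0.97 with this trend, a description in which both measures come from the same libraries. WT and Dnmt1 KO libraries interleaved along it, and Dicer/Dnmt1 KO lay at its end. The trend was then removed from each library. In Dicer/Dnmt1 KO against WT 69 of 80 were then lower with a median of -0.45 (4930 of all 12879 genes were lower). In Dnmt1 KO against WT 46 were lower with a median of -0.29 (3702 of all genes). Between the KO groups 18 of 80 were lower with a median of -0.18, a share near that of all genes (2725 of 12879). Rpl39l and Rpl10l remained called higher in both comparisons with WT. Within the 75 plainly named genes the fall against WT did not follow the median length of their coding transcripts (rank correlation 0.04 in Dicer/Dnmt1 KO). The library trend was taken over each gene's longest transcript, which is another measure. What sets the length trend was not tested.

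**Figure D5:**
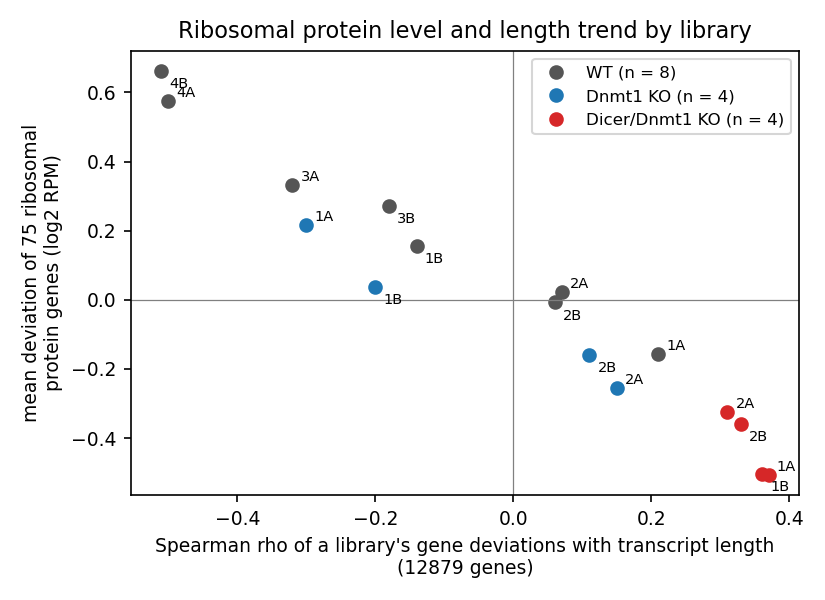
Mean deviation of the 75 plainly named genes (log2 RPM) against the Spearman correlation of the library's gene deviations with transcript length, each point a library. The 4 Dicer/Dnmt1 KO libraries lie at 0.31 to 0.37 on the horizontal axis and WT 4A and 4B at the opposite end.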

How the data were processed

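The authors trimmed 100-base paired reads of ribosomal RNA-depleted total RNA with Trim Galore, aligned them with TopHat to NCBIM37, discarded mapping qualities under 20 and deposited 1 table of log2 RPM per gene made in SeqMonk. The submitters' processing notes name Trim Galore 0.3.5, TopHat2 2.0.11 and the builds GRCm38 and NCBIM37, without roles. A gene with no read is written as 0.9 of a read. Of the table's value columns, 35 belong to other samples and were not used. Values were tested as deposited with limma 3.58.1 (R 4.3.3, trend) over 12892 genes with at least 1 RPM in at least 4 libraries, 3 groups in 1 fit and Benjamini-Hochberg adjustment, and calls at 0.05. A fold change is a difference of log2 RPM. The script was tested on simulated data. Copies were blastn 2.17.0 matches of the coding sequence to NCBIM37 (at least 80% of its length at 95% identity). Library precision is that of 31.5 to 52.5 M reads, where 3 reads are 0.0571 to 0.0954 RPM. Because no source says that libraries came from separate cultures, p-values measure the spread between these libraries, which may be technical, and letters A and B of a number resembled each other (estimated correlation 0.667).

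Members, lists and tests were chosen with earlier results of these data known. Genes named in the text were the paralogs and parents, the P-stalk, the 3 highest and 3 lowest log2 fold changes per comparison among called genes whose groups did not overlap, the 3 highest and lowest per kb, and Rps6, Rps19, Rpl5, Rpl11 and Rps27a. Of each list at most 3 genes are named, and the counts of the list of ribosomal genes outside the naming rule are not reported here. Other genes overlap some members (Fam69a and Rpl5 on opposite strands, for example). Libraries were prepared stranded, but the counting setting for strand is not given in the sources used here. Promoters are from RefSeq (GRCm38.p6), of which 60 of 81 genes had an entry.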

Additional observations from a re-analysis of the deposited data

Results flagged for a closer look

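Values of the 28 named genes and of the family's share of reads were screened for a library far from the rest of its group by Dixon's test, in 87 groups of 4 or 8 libraries. Chance alone flags about 1 in 20 groups, and 1 was found. Rpl10a in Dicer/Dnmt1 KO 2B, at 7.895 log2 RPM, lay below the other 3 libraries of its group (7.999, 8.004 and 8.012), with a gap of 0.894 of the group's range. All 4 libraries lay below every WT library.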

How the results depend on the processing

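Counts are of the 80 tested genes called by limma, higher and lower together, against 19 (Dnmt1 KO against WT), 79 (Dicer/Dnmt1 KO against WT) and 26 (Dicer/Dnmt1 KO against Dnmt1 KO) as reported, in that order. WT-only choices have no value in the last. A minimum of 2-fold gave 2, 4 and 0 (653 higher and 248 lower, 1221 and 429, and 382 and 207 of all 12892 genes). Averaging letters gave 2 in the first and 1 in the last, and estimating their correlation 6 and 5. Letter A alone gave 2, 22 and 1, and letter B alone 2 in the first and 0 in the last (15 at an unadjusted p under 0.05). No filter gave 11 and 13 in the first and last. Removing the length trend gave 48 in the first, WT numbers 1 and 2 only 11, and numbers 3 and 4 only 71. The KO groups alone gave 62 in the last. Counts over all genes moved with the setting too. In the first comparison 3030 were higher and 2259 lower as reported. These became 1419 and 869 with letters averaged, 1136 and 697 with letter A and 1000 and 610 with letter B. In the second, letter A gave 2335 and 1667, against 4108 and 3877 as reported. In the last, averaging gave 681 and 544, letter A 541 and 410 and letter B 400 and 267, against 2184 and 2498. Leaving out each library in turn gave 6 to 37, 73 to 79 and 6 to 44, with medians of -0.36 to -0.19, -0.71 to -0.59 and -0.49 to -0.325. The median in Dicer/Dnmt1 KO against WT was -0.45 with the length trend removed, -0.39 with quantile normalization, -0.43 with WT numbers 1 and 2 and -0.89 with numbers 3 and 4, and between the KO groups it was -0.18 with the length trend removed. Shares of the whole library were 4.00% for WT, 3.265% after loss of Dnmt1 and 2.505% after loss of both. Rps12 turned from lower to 0.074 in Dicer/Dnmt1 KO against WT under quantile normalization. The cause was not tested. Of 2349 values of named genes under alternatives 197 lost the call, 84 gained it, 1 called value turned and 2067 stayed on their side of the threshold, where values that were not called could change sign.

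Libraries share numbers across groups, and deviations of same-numbered libraries correlated between -0.34 and 0.58. The lowest value was for number 1 of Dnmt1 KO with WT and the highest for number 1 of Dicer/Dnmt1 KO with WT. With so few numbers in each KO group, these values cannot decide whether the numbers pair the libraries. A replicate block on the number gave 18 genes (5 higher and 13 lower, median -0.02 against -0.27 as reported), 72 (median -0.43) and 68. Of all genes the block called 3675 higher and 2866 lower, 4021 and 3807, and 3146 and 3544 in the same order.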
